A study of Homo sapiens with 8 samples.

Results

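The enzymes that hydroxylate and crosslink collagen were followed as 10 genes, the lysyl oxidases LOX, LOXL1, LOXL2, LOXL3 and LOXL4, the lysyl hydroxylases PLOD1, PLOD2 and PLOD3, and the prolyl 4-hydroxylase alpha subunits P4HA1 and P4HA2, out of 22395 genes with a probe set of their own. They were chosen by name, with earlier results of these data known. Each was read from a probe set whose only gene symbol was that gene, the brightest on average where there were several. A single such probe set served 9 of the genes, and LOXL4 had 2. On each of the 8 arrays all 10 read more than 2.57, the median log2 value of the deposited table, so all 10 were among the 16986 genes tested.

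The arrays came from U-CH1 and MUG-Chor1, established cell lines from chordoma, a tumour with notochord-like cells. Each line had 3 untreated control arrays and 1 array of cells given recombinant human TNF-α at 10 ng/mL for 1 week, with 3 additions per week. All cells, controls included, grew as monolayers on gelatin, which is itself denatured collagen, in IMDM and RPMI medium with fetal bovine serum. The labels do not say that the control arrays came from separate cultures, so their spread may be technical, and the TNF arrays have no replicate within a line. All values are RMA signals taken as log2, so a difference of 1 is a doubling.

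Collagen chains are modified inside the cell before they fold into a triple helix. Prolyl 4-hydroxylases make the hydroxyproline that keeps the helix stable at body temperature, and lysyl hydroxylases make the hydroxylysine that carries sugars and forms the firmer crosslinks; both kinds of enzyme need oxygen, iron, 2-oxoglutarate and ascorbate. After secretion and trimming of the procollagen ends, the copper enzymes of the lysyl oxidase family oxidise lysines and hydroxylysines to aldehydes, which join neighbouring collagen and elastin molecules. Notochord and cartilage, which chordoma resembles, make a matrix of type II and type XI collagen. LOX, PLOD2, P4HA1 and P4HA2 are known in many tissues as targets of the hypoxia-inducible factors (HIF), which bind a short motif around ACGTG or GCGTG.

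Promoter windows from RefSeq (GRCh38.p14), 250 bases before to 50 after each transcript start, were found for 9 of the 10 genes, 12 windows in all; LOXL2 had none. Of these, 4 are shown, with the 250 bases before the start on the strand of the gene: those of LOX, which carried the largest TNF difference, of PLOD2 and P4HA1, which also held ACGTG, and of LOXL4, which alone held the NF-κB consensus. Capitals mark motif matches on either strand. The windows are chr5:122078260-122078509 for LOX (its outermost start), chr3:146161185-146161434 for PLOD2, chr10:73096867-73097116 for P4HA1 and chr10:98268195-98268444 for LOXL4, all on the minus strand.
LOX: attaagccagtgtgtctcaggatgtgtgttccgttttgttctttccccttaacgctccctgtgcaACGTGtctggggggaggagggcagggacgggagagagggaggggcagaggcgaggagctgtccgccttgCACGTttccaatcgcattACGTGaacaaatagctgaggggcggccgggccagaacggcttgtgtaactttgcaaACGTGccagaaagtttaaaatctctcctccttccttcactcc
PLOD2: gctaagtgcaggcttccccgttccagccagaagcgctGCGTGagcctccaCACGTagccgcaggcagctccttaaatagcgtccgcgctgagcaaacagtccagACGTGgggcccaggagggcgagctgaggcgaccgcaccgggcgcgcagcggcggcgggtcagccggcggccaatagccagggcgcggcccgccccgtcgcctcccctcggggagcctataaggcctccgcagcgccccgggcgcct
P4HA1: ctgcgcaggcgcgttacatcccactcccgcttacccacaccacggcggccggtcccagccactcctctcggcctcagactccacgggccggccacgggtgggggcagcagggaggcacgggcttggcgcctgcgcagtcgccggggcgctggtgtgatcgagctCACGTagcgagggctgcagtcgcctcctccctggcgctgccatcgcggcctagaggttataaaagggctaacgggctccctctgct
LOXL4: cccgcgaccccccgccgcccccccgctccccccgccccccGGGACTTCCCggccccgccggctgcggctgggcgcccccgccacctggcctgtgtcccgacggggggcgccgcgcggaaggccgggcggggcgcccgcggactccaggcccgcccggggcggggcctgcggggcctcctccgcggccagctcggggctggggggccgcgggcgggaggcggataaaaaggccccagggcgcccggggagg

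ACGTG stood 185, 116, 98 and 42 bases before the outermost LOX start, 200 and 146 bases before that of PLOD2 and 86 bases before that of P4HA1. It was found in 5 of the 12 member windows, those of these 3 genes (3 windows are of LOX, and 2 of those overlap), and in 21.4% of all 35116 promoter windows of that length. GCGTG was found in 5 of the 12 windows (of LOX, LOXL3, PLOD1 and PLOD2) and in 36.5% of all windows. The AP-1 motif TGACTCA was in none of the 12 windows and in 4.95% of all, and the NF-κB consensus was in 1 (LOXL4, 210 bases before its start) and in 5.91% of all. These matches describe letters in short windows and not bound sites, and motifs elsewhere were not searched.

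As a check of the treatment, 7 of 8 measured TNF response genes rose across both lines, such as IL32, an inflammatory cytokine, by 3.27 ± 0.38 (SE; adjusted p = 0.00194, limma). On the untreated MUG-Chor1 control 3, ICAM1 read 6.75 (4.55 and 4.24 on controls 1 and 2), CCL5 5.43 (3.50 and 3.51) and CCL2 3.11 (1.21 and 0.99). IL32, TNFAIP3 and TRAF1 were also highest there, NFKBIA lay between and VCAM1 was lowest. The part of this in the MUG-Chor1 TNF differences was not tested. The chordoma markers, 10 genes that include TBXT (brachyury), KRT19 and ACAN (aggrecan), were all above the median in every group. Their mean log2 level was 7.14 to 7.59 on the U-CH1 controls, 6.91 on the U-CH1 TNF array, 7.28 to 7.61 on the MUG-Chor1 controls and 5.40 on the MUG-Chor1 TNF array. The leukocyte genes PTPRC and CD3E and the endothelial gene EMCN were below the median in every group. The macrophage and lysosome gene CD68 was above it on every array. So were the leukocyte genes TYROBP (2.68 to 3.75) and CSF1R (3.01 to 3.67) and the endothelial gene KDR (4.20 to 7.52). The remaining measured genes of these lists were below it on some arrays only. Arrays within a control group correlated at 0.959 to 0.981 over the genes tested, and array medians over all probe sets were 2.52 to 2.63. The sources used here give no scan or batch, and an array batch that ran with TNF and TNF itself cannot be told apart.

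The first comparison set the untreated lines side by side. Most of the enzymes were at a lower level in MUG-Chor1 than in U-CH1: 6 of 10 were called lower (LOXL2, P4HA1, LOXL1, P4HA2, PLOD3 and PLOD2) and 1, LOXL4, was called higher. A call is an adjusted p under 0.05 in limma with Benjamini-Hochberg adjustment over the 16986 genes. The background was high: 18.9% of all genes were called between the lines, 8.57% lower and 10.3% higher. The median difference of the 10 members was -0.71, against -0.04 for all genes tested.

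P4HA1 and P4HA2, prolyl 4-hydroxylase alpha subunits that carry the catalytic site of the enzyme, were lower in MUG-Chor1. P4HA1, the alpha subunit of the type I enzyme, read 8.50, 8.91 and 8.91 on the U-CH1 controls (mean 8.77 ± 0.24 SD, n = 3) and 6.67, 6.33 and 6.37 on the MUG-Chor1 controls (6.46 ± 0.19 SD, n = 3). The groups lay far apart, with a difference of -2.32 ± 0.20 (SE; adjusted p = 3.94e-05, limma), a 4.98-fold lower signal. P4HA2, the alpha subunit of the type II enzyme, read 5.37, 5.29 and 5.49 against 4.56, 4.36 and 4.55, also without overlap. Its difference was -0.90 ± 0.18 (SE; adjusted p = 0.00669, limma). The third alpha subunit gene, P4HA3, which is not among the 10, was near the median of all values and overlapped between the lines, at 2.40 to 2.74 and 2.15 to 2.98 (adjusted p = 0.884).

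Among the lysyl hydroxylases, PLOD3 and PLOD2 were called lower in MUG-Chor1 and PLOD1 was not called. PLOD2, which hydroxylates the telopeptide lysines that set the type of crosslink, read 9.12, 9.10 and 9.05 in U-CH1 and 8.39, 8.21 and 8.66 in MUG-Chor1, a difference of -0.67 ± 0.19 (SE; adjusted p = 0.0344, limma). PLOD3, which also adds the sugars to hydroxylysine, read 7.82, 7.34 and 7.82 against 6.90, 6.76 and 7.08, a difference of -0.75 ± 0.21 (SE; adjusted p = 0.0307, limma). No control of one line overlapped the other for either gene, but both calls were near the threshold. That of PLOD2 held in 10 of 16 alternatives and was lost after median centring (adjusted p = 0.0508) and without any 1 of 5 controls (up to 0.147), and that of PLOD3 held in 12 of 16 and was lost without any 1 of 4 controls (up to 0.116). PLOD1, which hydroxylates lysines of the helix, read 9.28, 9.15 and 9.40 against 9.14, 8.98 and 8.93, a difference of -0.26 with a 95% interval of -0.67 to 0.15 (adjusted p = 0.379, limma).

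The lysyl oxidase family was split. LOXL2, a family member with scavenger receptor domains that crosslinks type IV and other collagens, read 8.99, 8.70 and 9.04 on the U-CH1 controls (8.91 ± 0.18 SD, n = 3) and 6.32, 6.44 and 5.63 on the MUG-Chor1 controls (6.13 ± 0.44 SD, n = 3). This was the widest gap of the 10, -2.78 ± 0.24 (SE; adjusted p = 3.67e-05, limma), a 6.89-fold lower signal in MUG-Chor1. LOXL1, which crosslinks elastin, was also lower, at 5.83, 5.73 and 5.58 against 4.95, 4.69 and 4.61 (difference -0.96 ± 0.19 SE, adjusted p = 0.00572, limma). The calls of LOXL2, LOXL1, P4HA1 and P4HA2 held in all 16 alternatives.

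LOXL4 ran the other way, at 3.50, 3.40 and 3.86 on the U-CH1 controls and 4.36, 4.31 and 5.59 on the MUG-Chor1 controls. MUG-Chor1 control 3 stood well above the other two, and the difference was 1.17 ± 0.32 (SE; adjusted p = 0.0297, limma). Without that array it was 0.75 (adjusted p = 0.0411). The second LOXL4 probe set read 2.67, 1.86 and 2.35 against 2.37, 2.18 and 2.51, values that overlap between the lines but are mostly below the median of all values, and with the mean over both probe sets the difference was 0.61 and not called (adjusted p = 0.122); leaving out U-CH1 control 1 (0.0976) or 2 (0.0967) also ended the call.

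LOX and LOXL3 overlapped between the untreated lines. LOX, the founding member of the family and the main oxidase of fibrillar collagen, read 3.47, 3.60 and 3.69 in U-CH1 (3.59 ± 0.11 SD, n = 3) and 4.32, 3.73 and 3.09 in MUG-Chor1 (3.71 ± 0.62 SD, n = 3). The MUG-Chor1 controls spanned the U-CH1 values, and the difference was 0.13, with an interval of -0.50 to 0.75 (adjusted p = 0.805, limma). LOXL3 read 4.81, 4.89 and 4.26 against 5.23, 4.60 and 4.40, a difference of 0.09 with an interval of -0.49 to 0.67 (adjusted p = 0.854, limma). Over all 10 members, the controls of the lines did not overlap for 8, against 36.3% of the genes tested.

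**Figure D1:**
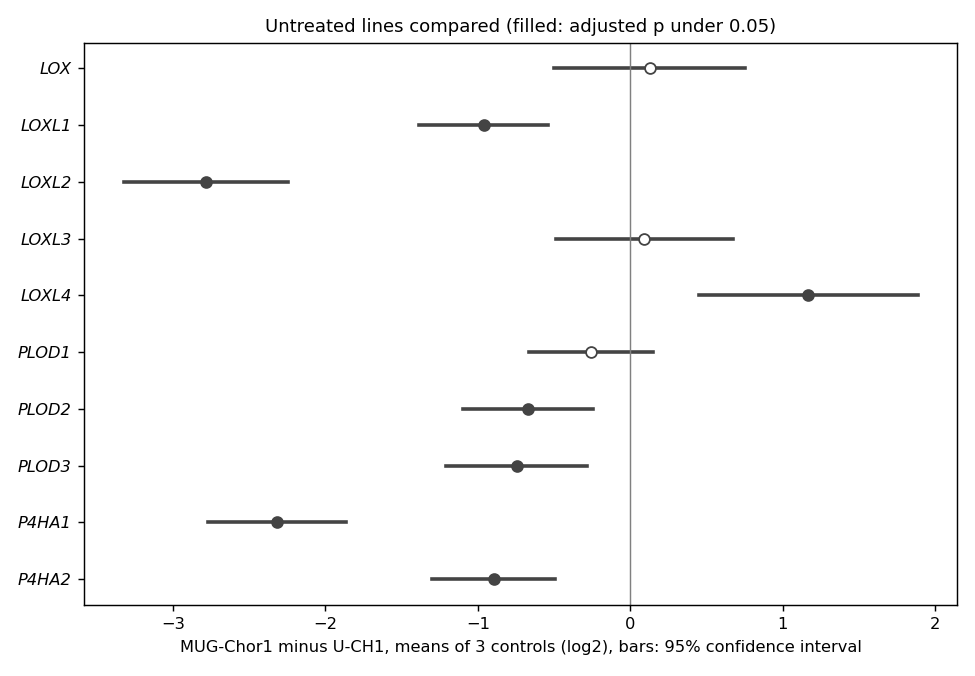
Difference between the untreated lines for each of the 10 enzymes, as the MUG-Chor1 mean minus the U-CH1 mean of 3 controls each (log2, x axis), with the 95% confidence interval as a bar; filled points have an adjusted p under 0.05 in limma. LOXL2 at -2.78 and P4HA1 at -2.32 lie farthest below 0, LOXL4 at 1.17 lies above it, and the intervals of LOX, LOXL3 and PLOD1 cross 0.

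The second question was how the levels of these genes differed after a week of TNF. LOX rose in MUG-Chor1, 7.62-fold, and was not called in U-CH1, where the TNF array lay just below the controls. LOXL2 was higher on the TNF array of both lines and was called across them, 2.25-fold. No lysyl hydroxylase or prolyl hydroxylase was called in any TNF comparison, and no member was called lower. Members called higher were thus 1 of 10 across both lines, 0 of 10 in U-CH1 and 1 of 10 in MUG-Chor1, against 1.55%, 0.913% and 1.47% of all genes tested called higher (2.48%, 1.27% and 2.88% called in either direction). Members called lower were 0 of 10 in each, against 0.93%, 0.359% and 1.41% of all genes. At an unadjusted p under 0.05 in limma, 3 members were higher across both lines, 1 in U-CH1 and 5 in MUG-Chor1, against 9.87%, 6.99% and 7.45% of all genes tested. None was lower, against 5.45%, 3.8% and 5.17%. The count in U-CH1 is thus near that of all genes. The tests within a line take the single TNF array to vary as the 6 controls do.

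**Figure D2:**
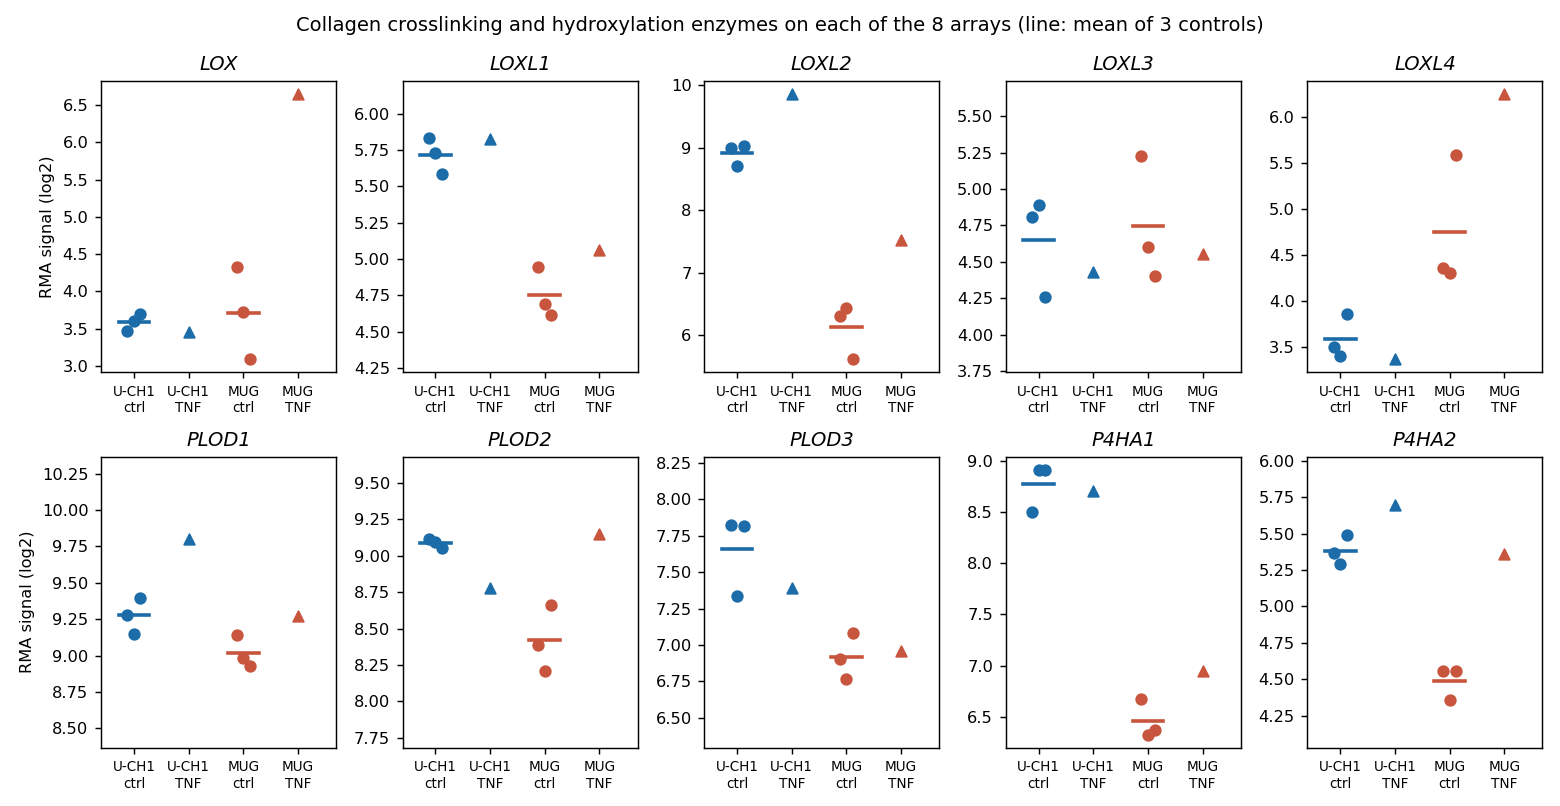
RMA log2 signal of each enzyme on every array, one panel per gene, with controls (ctrl, 3 per line) and the TNF array (1 per line) of U-CH1 and MUG-Chor1 on the x axis. The LOX value of the MUG-Chor1 TNF array, 6.65, stands above all other LOX values, and LOXL2 is above its own controls in both lines, at 9.86 and 7.53.

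LOX read 3.45 on the U-CH1 TNF array, against controls of 3.47 to 3.69, and 6.65 on the MUG-Chor1 TNF array, against controls of 3.09 to 4.32. The MUG-Chor1 TNF array was thus above every other array and the U-CH1 TNF array was at the low edge of its controls. In MUG-Chor1 the difference was 2.93 ± 0.40 (SE; 95% interval 2.04 to 3.82; adjusted p = 0.00304, limma), and this call held in all 14 alternatives (adjusted p 0.00111 to 0.0104). In U-CH1 it was -0.13, with an interval of -1.02 to 0.75 (adjusted p = 0.964).

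The TNF difference of LOX was itself larger in MUG-Chor1 than in U-CH1, by 3.06 ± 0.57 (SE; 95% interval 1.81 to 4.32; adjusted p = 0.0480, limma). LOX was the only one of the 10 called in that comparison, where 0.53% of all genes were called, 0.2% in that direction and 0.33% in the other. The call was near the threshold and held in 7 of 14 alternatives. It was lost without a filter on dim genes (0.0773), with a stricter filter (0.0536), after quantile normalization (0.0532), and without U-CH1 control 1 (0.122), 2 (0.128) or 3 (0.109) or MUG-Chor1 control 2 (0.0756), with the difference between 2.75 and 3.37 over the arrays left out in turn. Across both lines together LOX was not called (1.40 ± 0.54 SE, adjusted p = 0.234).

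Genes listed as markers of other cell types also moved with TNF. Of the 9 listed fibroblast markers 8 had a probe set and 6 were tested. Of these, 3 were called higher in MUG-Chor1, against 1.47% of all genes, and none was called lower. By sign, 4 of the 6 lay above 0 there and 2 below. Those 2, THY1 and PDGFRB, read below all MUG-Chor1 controls on the TNF array of that line. LUM, a collagen-binding proteoglycan, rose by 3.65 (adjusted p = 0.00442, limma). FAP, a serine protease of activated fibroblasts, read 5.71 on the TNF array (0.000149), and DCN, another proteoglycan, read 3.11 (0.0379, lost in 3 of 13 alternatives). On the MUG-Chor1 controls FAP read 1.63 to 2.29 and DCN 1.46 to 1.58, below the median of all values, so no size is given for their rise, and FAP was tested only because of this TNF array. The mean log2 level of the list was 2.85 to 3.27 on the MUG-Chor1 controls and 4.12 on the TNF array, and 3.27 to 3.58 and 3.41 in U-CH1. DPT and TCF21 stayed below the median of all values on both TNF arrays. Of the 10 chordoma markers, 6 were called lower in MUG-Chor1, against 1.41% of all genes. None was called in U-CH1 by limma, where 3 were lower at an unadjusted p under 0.05 (3.8% of all genes). Of 6 tested leukocyte markers, CD68 and ITGAM were called higher across both lines, by 0.84 (0.0485) and 0.83 (0.0448), each lost in at least 8 of 17 alternatives. Of all genes, 1.55% were called higher in that comparison. CD68 read 8.48 on the U-CH1 TNF array against controls of 7.67 to 8.05, and 9.17 in MUG-Chor1 against 8.02 to 8.25. ITGAM read 3.54 against 2.36 to 2.70, and 2.81 against 2.10 to 2.21, the latter controls below the median of all values. No leukocyte marker was called within a line by limma. At an unadjusted p under 0.05, 4 were higher in U-CH1 and 2 in MUG-Chor1, against 6.99% and 7.45% of all genes. By sign, all 6 lay above 0 in U-CH1, 3 lay above and 3 below in MUG-Chor1, and 4 above and 2 below across both lines. The mean log2 level of the leukocyte list was 2.96 to 2.99 on the U-CH1 controls and 3.44 with TNF, and 2.98 to 3.16 and 3.19 in MUG-Chor1. The part of these shifts in the LOX result, and in the LOXL2 result across both lines, was not tested. In bulk RNA, more cells with a transcript and more transcript per cell cannot be told apart.

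LOXL2 read 9.86 on the U-CH1 TNF array, against 8.70 to 9.04 on the controls, and 7.53 on the MUG-Chor1 TNF array, against 5.63 to 6.44. Both TNF arrays lay above all controls of their line, though the MUG-Chor1 TNF array remained below the lowest U-CH1 control. Across both lines the difference was 1.17 ± 0.24 (SE; 95% interval 0.64 to 1.71; adjusted p = 0.0337, limma). The call held in 12 of 17 alternatives and was lost without U-CH1 control 1 (0.0613) or 2 (0.0664), MUG-Chor1 control 1 (0.0713), the U-CH1 TNF array (0.0610) or the MUG-Chor1 TNF array (0.313). Within a line the difference was 0.94 ± 0.34 (SE) in U-CH1 (adjusted p = 0.313) and 1.40 ± 0.34 (SE) in MUG-Chor1 (adjusted p = 0.0610). These differed by 0.46, with an interval of -0.62 to 1.53 (adjusted p = 0.989).

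LOXL4 read 3.37 on the U-CH1 TNF array, just under its controls of 3.40 to 3.86, and 6.25 on the MUG-Chor1 TNF array, above its controls of 4.31 to 5.59. The MUG-Chor1 difference was 1.50 ± 0.46 (SE) and not called (adjusted p = 0.146, limma). It was called in 2 of 14 alternatives, with array weights (1.73) and without MUG-Chor1 control 3, the array with the highest control value. Without that control the difference was 1.92 (adjusted p = 0.00492, limma). The gap between the lines' TNF effects was then 2.13 (0.0445) instead of 1.71 (0.494). The second LOXL4 probe set read 1.96 on that TNF array against controls of 2.18 to 2.51, all below the median of all values, which says little on whether LOXL4 rose; the mean over both gave 0.55 (0.626). LOXL1 read 5.82 and 5.07 on the U-CH1 and MUG-Chor1 TNF arrays, and LOXL3 read 4.43 and 4.56. Neither gene was called in any TNF comparison.

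The lysyl hydroxylases moved by less than a doubling. PLOD2 read 8.78 on the U-CH1 TNF array, under its controls of 9.05 to 9.12, and 9.15 on the MUG-Chor1 TNF array, above its controls of 8.21 to 8.66. These opposite shifts, -0.31 and 0.73 ± 0.27 (SE), were not called within a line (adjusted p = 0.793 and 0.261, limma), and the gap of 1.04 ± 0.38 (SE) between them was not called either (0.473). PLOD1 read 9.80 and 9.27 on the U-CH1 and MUG-Chor1 TNF arrays, above all controls of its line in both, with differences of 0.53 (0.511) and 0.25 (0.818). PLOD3 read 7.39 and 6.96, within its controls in both lines.

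P4HA2 was above all controls on both TNF arrays, at 5.70 in U-CH1 and 5.36 in MUG-Chor1. Its difference was 0.32 in U-CH1 (adjusted p = 0.768), 0.87 ± 0.26 (SE) in MUG-Chor1 (0.131) and 0.59 ± 0.19 (SE) across both (0.150, limma), none of them called. With TNF, the MUG-Chor1 value of P4HA2 fell within the range of the untreated U-CH1 arrays. P4HA1 read 8.70 in U-CH1, within its controls, and 6.94 in MUG-Chor1, above them, with a difference of 0.49 there (0.580). It thus stayed below every U-CH1 array.

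By position alone, the MUG-Chor1 TNF array was above all 3 of its controls for 8 members, all but LOXL3 and PLOD3, and below them for none; 35.3% of all genes tested were above and 23.9% below. In U-CH1, 3 members were above (LOXL2, PLOD1 and P4HA2), 3 were below (LOX, LOXL4 and PLOD2) and 4 lay within, against 30.8%, 23.4% and 45.7% of all genes. The median TNF difference of the members was 0.61 in MUG-Chor1 (all genes 0.06), -0.10 in U-CH1 (all genes 0.04) and 0.30 across both lines (all genes 0.05).

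**Figure D3:**
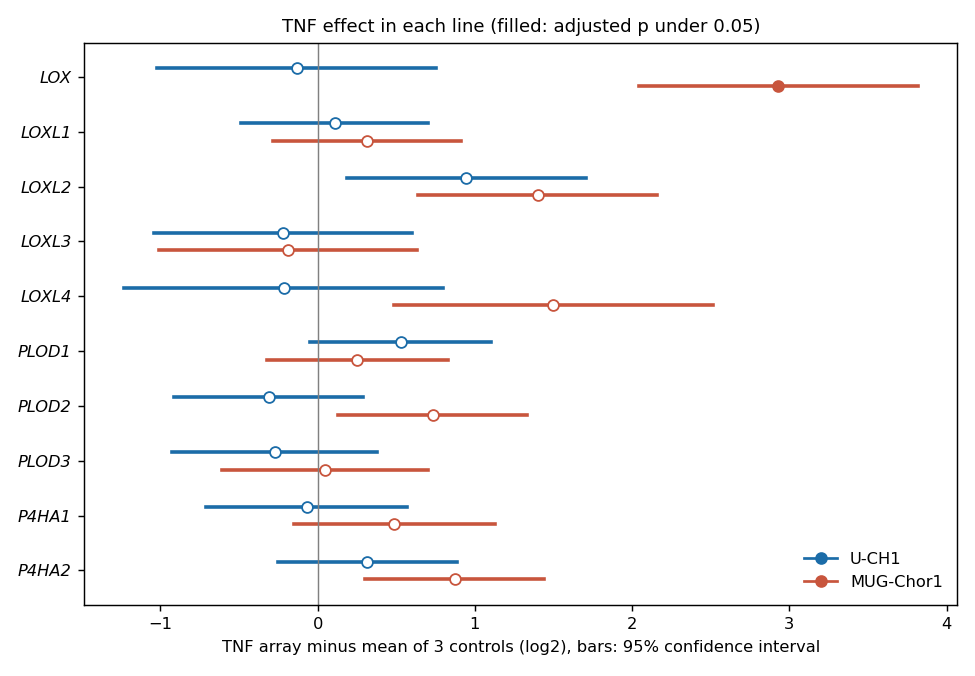
TNF difference of each enzyme in U-CH1 and in MUG-Chor1, as the TNF array minus the mean of 3 controls (log2, x axis), with the 95% confidence interval as a bar; filled points have an adjusted p under 0.05 in limma. LOX in MUG-Chor1, at 2.93, is the one filled point, and LOXL2 lies above 0 in both lines, at 0.94 and 1.40.

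The partners of these enzymes in the endoplasmic reticulum were 17 listed genes, of which 16 had a probe set and were tested. With TNF, 1 of the 16 rose, in both lines and across them. Of all genes, 0.913% were called higher in U-CH1, 1.47% in MUG-Chor1 and 1.55% across both. No partner was called lower by limma (2 lower in U-CH1 at an unadjusted p under 0.05, as were 3.8% of all genes). TMEM38B, an endoplasmic reticulum cation channel whose loss leaves collagen poorly hydroxylated, read 4.75, 4.63 and 4.54 on the U-CH1 controls and 5.97 with TNF, and 6.33, 6.17 and 6.31 on the MUG-Chor1 controls and 7.92 with TNF. Both TNF arrays lay well above their controls. It rose by 1.49 ± 0.18 (SE; adjusted p = 0.00230, limma) across both lines and by 1.64 (0.00610) in MUG-Chor1, and by 1.33 (0.0358) in U-CH1, the last lost in 5 of 14 alternatives (up to 0.0800). Between the untreated lines TMEM38B was higher in MUG-Chor1 by 1.63 (0.000177), and 5 of the 16 partners were lower there. Of all genes, 10.3% were called higher and 8.57% lower. Among the 5 were the collagen prolyl isomerases FKBP14 (-1.31) and FKBP10 (-1.28) and the prolyl 3-hydroxylase P3H2 (-1.28).

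Of 13 genes of procollagen trimming and fibril assembly, all tested, FMOD (fibromodulin, a proteoglycan that binds collagen fibrils) fell with TNF across both lines. It read 7.48, 8.34 and 8.61 on the U-CH1 controls and 5.88 with TNF, and 10.7, 10.5 and 10.5 on the MUG-Chor1 controls and 8.83 with TNF, below its controls in each line, a difference of -2.01 ± 0.28 (SE; adjusted p = 0.00500, limma). POSTN (periostin, a matrix protein that supports lysyl oxidase activation) fell in U-CH1 by 1.84 (0.0379, lost in 3 of 14 alternatives). PCOLCE2, an enhancer of procollagen C-terminal trimming, was called higher in MUG-Chor1 (0.0460, lost in 6 of 14), but it read 2.76 with TNF, little above the median of all values, and 1.40 to 1.67, below it, on the controls. Of the 13, 1 was called lower across both lines, 2 in U-CH1 and 1 in MUG-Chor1, against 0.93%, 0.359% and 1.41% of all genes. Called higher were 0, 0 and 1, against 1.55%, 0.913% and 1.47%. Between the untreated lines 8 of the 13 were called, 2 higher in MUG-Chor1, FMOD among them by 2.43, and 6 lower. Of all genes, 18.9% were called in that comparison, 10.3% higher and 8.57% lower. Among the 6, POSTN read 5.45 to 6.30 in U-CH1 and 2.08 to 2.62 in MUG-Chor1, the procollagen protease TLL1 4.48 to 4.96 and 1.58 to 2.33, and the procollagen N-proteinase ADAMTS3 3.62 to 3.82 and 1.56 to 1.90. Nearly all of these MUG-Chor1 values were below the median of all values, so no size of the difference is given.

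In MUG-Chor1, where LOX rose, 3 of the collagen chains it acts on fell. Of 12 listed collagen and elastin genes 10 were tested. These 3 were called lower in MUG-Chor1 and none higher, against 1.41% and 1.47% of all genes. None was called in U-CH1 by limma (none at an unadjusted p under 0.05). COL2A1, the chain of type II collagen, read 5.64, 5.46 and 6.56 on the MUG-Chor1 controls and 3.06 with TNF, a difference of -2.82 (adjusted p = 0.00610, limma). COL2A1 is in both lists and is also 1 of the 6 chordoma markers called lower in MUG-Chor1. COL11A1, a chain of type XI collagen, went from 7.40, 7.33 and 6.81 to 5.22, a difference of -1.96 (0.00691). COL5A2, a chain of type V collagen, went from 7.90, 8.20 and 7.32 to 6.07, a difference of -1.74 (0.0207; 0.0701 without MUG-Chor1 control 1). No substrate was called for a difference of its TNF effect between the lines; 4 were lower in MUG-Chor1 at an unadjusted p under 0.05 in limma, as were 3.95% of all genes. Across both lines COL11A1 was called, at -1.31 (0.0438, lost in 7 of 17 alternatives). That is 1 of 10 called lower, against 0.93% of all genes.

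**Figure D4:**
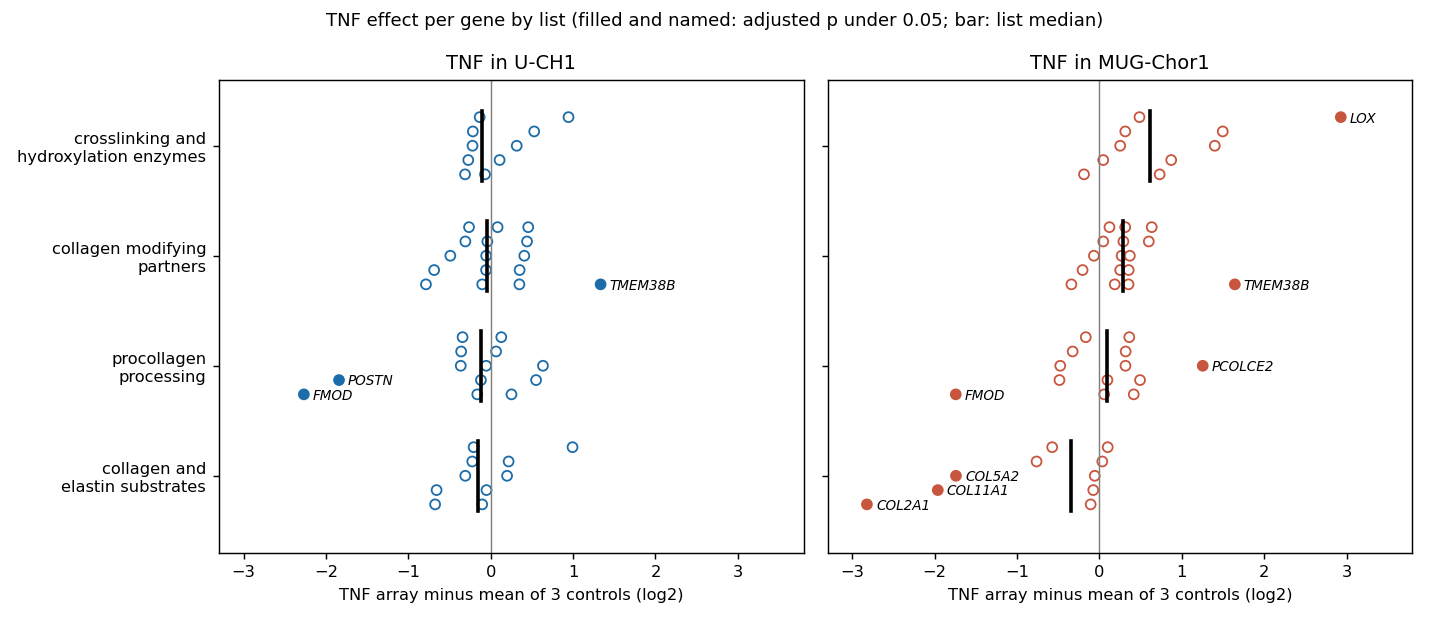
TNF difference (log2, x axis) of each tested gene in 4 gene lists, in U-CH1 (left) and MUG-Chor1 (right); points are genes, filled and named where the adjusted p in limma is under 0.05, and the vertical bar is the list median. In MUG-Chor1, LOX at 2.93 and TMEM38B at 1.64 lie to the right, and COL2A1 at -2.82, COL11A1 at -1.96 and COL5A2 at -1.74 lie to the left; the PCOLCE2 controls there are below the median of all values.

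Genes that serve or control these enzymes were mostly not called with TNF. None of 11 cofactor genes (copper, iron, ascorbate, zinc and succinate handling) was called in either line or across them by limma. At an unadjusted p under 0.05, 3 were higher and none lower across both, 2 were higher in U-CH1, and 2 were higher and 2 lower in MUG-Chor1. Of all genes, 9.87% were higher and 5.45% lower at that threshold across both lines, 6.99% higher in U-CH1, and 7.45% higher and 5.17% lower in MUG-Chor1. The smallest p was that of SLC31A2, a copper transporter of vesicles, at 0.88 (adjusted p = 0.0853). Of 17 measured HIF targets other than the members, 1 rose in MUG-Chor1: ADM (adrenomedullin, a vasodilator peptide) read 4.42, 4.25 and 5.07 on the controls and 7.15 with TNF, a rise of 2.57 (adjusted p = 0.00276), against 4.29, 4.45 and 4.72 and 4.14 in U-CH1. The difference of 2.91 between the lines' TNF effects was called (0.0329) and lost in 5 of 14 alternatives. The 16 others were not called in MUG-Chor1, where 1.47% of all genes were called higher and 1.41% lower. At an unadjusted p under 0.05, 5 of the 17 were higher there and none lower, against 7.45% and 5.17% of all genes. By sign, 15 lay above 0, and the median was 0.47, against 0.06 for all genes. In U-CH1 none was under that p and the median was 0.05, against 0.04. None of the 7 measured HIF subunits and oxygen sensors was called with TNF by limma (1, ARNT2, higher across both lines at an unadjusted p under 0.05, by 0.76 with an adjusted p of 0.0782). Between the untreated lines, 6 of the 17 HIF targets were called lower in MUG-Chor1 and none higher, against 8.57% and 10.3% of all genes. Among the 6 were PDK1 (-1.09), a kinase that holds back pyruvate oxidation, and VEGFA (-1.06), a vessel growth factor.

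Of 14 measured genes of the TGF-β pathway and its matrix targets, CCN2 (connective tissue growth factor) fell with TNF in both lines. It read 9.59, 9.12 and 9.02 on the U-CH1 controls and 6.85 with TNF, and 7.77, 7.52 and 8.14 on the MUG-Chor1 controls and 4.87 with TNF. The difference across both lines was -2.67 ± 0.24 (SE; adjusted p = 0.000686, limma), and the call held in all 17 alternatives. The receptor TGFBR1 rose by 1.09 across both (0.0303, lost in 5 of 17), and the ligand TGFB2 rose by 2.01 in MUG-Chor1 (0.0492, lost in 7 of 14). Across both lines 1 of the 14 was thus called higher and 1 lower, against 1.55% and 0.93% of all genes. In U-CH1 these counts were 0 and 1 (0.913% and 0.359%), and in MUG-Chor1 1 and 1 (1.47% and 1.41%). By sign, 9 lay above 0 across both lines and 5 below. The target TGFBI read above all controls of its line on both TNF arrays, at 7.23 in U-CH1 and 7.16 in MUG-Chor1, and was not called. Of 11 tested genes of other amine oxidases and 2-oxoglutarate oxygenases, ASPHD1 was called across both lines (0.92, adjusted p = 0.0419, lost in 8 of 17). That is 1 of 11 called higher, against 1.55% of all genes.

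Over the 8 arrays, the genes whose values ran most like those of LOX were AGTR1 (the angiotensin II type 1 receptor, Pearson r = 0.985), MAP1B (a microtubule-associated protein, 0.983) and LYPD3 (0.980). On the MUG-Chor1 TNF array, where LOX was highest, MAP1B read 7.07 against 6.17 at most on the controls, LYPD3 4.49 against 3.91 and AGTR1 3.19 against 2.17; that they peak there follows from how they were chosen. AGTR1 was below the median of all values on the 7 other arrays and was tested only because of this one. None of the 3 was called for TNF in MUG-Chor1 by limma (adjusted p = 0.0609, 0.0538 and 0.218). The genes most like LOXL2 were TMEM131 (0.990), which has been linked to collagen secretion, CBR1 (0.989), a carbonyl reductase, and BAX (0.988), an effector of apoptosis, all of which were lower in untreated MUG-Chor1, by 0.96, 0.83 and 1.84 on the log2 scale. The 8 arrays share lines and treatment, so these correlations describe the arrays only.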

How the data were processed

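Total RNA from the 8 samples of U-CH1 and MUG-Chor1 was extracted with Trizol, labelled with the WT PLUS kit and hybridised to 1-colour whole-transcript arrays, per the labels' protocols. The deposited values, read here as log2, are RMA signals that the authors made with the Transcriptome Analysis Console, per the submitters' processing notes, with no version given. The log base is not stated and was taken from the method and the range of 0.0648 to 12.7. RMA corrects background and brings arrays to a common distribution, which can shrink broad shifts, and array number limits the precision.

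Of 53617 probe sets, 23871 had 1 gene symbol in the platform annotation, 1842 had several and 27904 were not listed. Symbols were updated through Entrez IDs in RefSeq (22569 matched, 90 changed), giving 22395 genes, 632 with several probe sets, of which the brightest on average was kept. Genes above the median of all values, 2.57, on at least 1 array were tested (16986). limma 3.58.1 in R 4.3.3 (lmFit, eBayes) was fitted with terms for line and TNF (TNF across both lines) or with 4 group means (TNF within a line, how far the TNF effect differed between lines, and the untreated lines), and p-values were adjusted by Benjamini-Hochberg over all genes tested. The comparisons share control arrays. The fits were also run on simulated data in which the TNF arrays were given the spread of the controls. That run cannot show whether the real TNF arrays vary so. Same-numbered controls of the lines did not deviate together (correlations 0.04, -0.06 and 0.16), so they were not paired.

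The members and the gene lists were chosen with earlier results of these data known. Named genes are the 10 members, up to 4 called genes per list and comparison by size (or the smallest p where none was called across both lines), and the 3 genes best correlated with each called member. Alternatives covered the filter, the probe set, quantile normalization, median centring, the variance model, array weights, the model, the control block, and leaving out each array. For the untreated lines they include a fit to the control arrays alone. It gave the same 3209 genes and 7 members as the main fit and could not differ from it. The filter and the mean over probe sets leave the value of a gene with 1 probe set as it was. Only its adjusted p can change under them.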

Additional observations from a re-analysis of the deposited data

Results flagged for a closer look

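The TNF effect differed between the lines, by limma's test of the difference itself, for 6 named genes. The effect in MUG-Chor1 minus that in U-CH1 was 3.06 for LOX (adjusted p = 0.0480), 2.91 for ADM (0.0329) and 3.95 for FAP (0.00336), and it was -3.31 for the aggrecan gene ACAN (0.0211), -2.47 for CD24 (0.0238) and -2.05 for KRT19 (0.0364). Each effect rests on 1 TNF array per line. FAP read 1.63 to 2.29 on the other 7 arrays, below the median of all values, and was tested only because of the MUG-Chor1 TNF array (5.71), so its 3.95 is no exact size. With LOX higher and the chordoma markers lower on the same MUG-Chor1 TNF array, a change in the cells and a property of that array cannot be told apart. The call of FAP held in all 13 alternatives that gave a value and that of ACAN in 13 of 14; those of CD24, ADM, KRT19 and LOX held in 10, 9, 9 and 7 of 14.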

How the results depend on the processing

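Of 750 alternative values of the members, 702 kept their direction and their side of the threshold, 25 lost a call, 7 gained one and 16 changed sign, all of them of values that were not called. Leaving out each array in turn gave 199 to 489 genes and 0 to 1 members called across both lines, 104 to 329 genes in U-CH1, 284 to 664 genes and 1 to 2 members in MUG-Chor1, 38 to 152 genes and 0 to 2 members for the gap between the lines' TNF effects, and 2123 to 3090 genes and 4 to 7 members between the untreated lines. The mean of both lines' contrasts gave 739 genes and 2 members across both lines, LOX (adjusted p = 0.0210) joining LOXL2. In MUG-Chor1, array weights gave 765 genes and 3 members, and an intensity trend 2 members. The difference of the TNF effects held 0 members without a filter, with the stricter filter and after quantile normalization.

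Without 1 TNF array, the estimate across both lines is that of the other line, and it ranged from -0.13 to 2.93 for LOX, -0.22 to 1.50 for LOXL4, -0.31 to 0.73 for PLOD2, -0.069 to 0.49 for P4HA1 and -0.27 to 0.046 for PLOD3. Leaving out each control in turn gave -0.36 to 0.054 for LOXL3 and -0.030 to 0.13 for PLOD3 in MUG-Chor1, -0.14 to 0.27 for the LOXL3 difference of TNF effects, and -0.15 to 0.26 for LOXL3 and -0.18 to 0.44 for LOX between the untreated lines. Quantile normalization gave -0.029 for PLOD3 in MUG-Chor1, and array weights -0.038 for the LOXL3 difference. The cause of these changes was not tested.

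With the control number as a replicate block, 3248 genes and 7 members were called between the untreated lines, LOXL2 at -2.78 (adjusted p = 7.38e-05), and no member's call changed. Single TNF arrays, controls of unstated origin and an unstated log base limit all values.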

Other observations

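Other genes around the crosslinking enzymes also differed between the untreated lines. Of all genes tested, 10.3% were called higher in MUG-Chor1 and 8.57% lower. Among the substrates, COL11A1 was higher in MUG-Chor1 by 1.77 (adjusted p = 0.000372, limma), while COL2A1 (-1.07, 0.0356) and COL27A1 (-1.04, 0.00593) were lower. Of the 11 cofactor genes, SLC39A13, a zinc transporter of the secretory pathway, was higher by 0.82, and the plasma membrane copper importer SLC31A1 (-0.80) and the mitochondrial dicarboxylate carrier SLC25A10 (-1.02) were lower. Of the 7 HIF subunits and sensors, HIF1AN, the asparagine hydroxylase that inhibits HIF, was higher by 1.30 and VHL, which marks HIF for degradation, by 0.78. The aspartyl hydroxylase gene ASPH, a relative of the collagen hydroxylases in cofactor use, was lower by 1.05 on the log2 scale. Leaving out single controls ended the calls of COL2A1, SLC31A1, VHL, SLC25A10 and SLC39A13 in 4, 4, 3, 2 and 1 of 6 cases.

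In the TGF-β list, THBS1 (thrombospondin 1, an activator of latent TGF-β) was higher in MUG-Chor1 by 1.98 (adjusted p = 0.00596, limma) and SMAD4 by 1.00 (0.00737), while TGFB2 (-1.87, 0.00301) and CCN2 (-1.43, 0.00187) were lower. The endothelial receptor gene KDR was higher in untreated MUG-Chor1 by 2.45 (0.000297) and fell there with TNF by 2.37 (0.0121), while EMCN stayed below the median of all values in every group.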
